A study of Mus musculus with 9 samples.

Results

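The small leucine-rich proteoglycans (SLRPs) were followed at the RNA level in differentiated MC3T3-E1 cells exposed to organic or inorganic phosphate. The 10 genes *Dcn*, *Bgn*, *Lum*, *Fmod*, *Ogn*, *Omd*, *Aspn*, *Prelp*, *Podn* and *Kera* were chosen by name. Earlier results of these data were known when they were chosen. All 10 were found among the 55416 genes of the count table. Of these, 9 passed the filter on low counts and were tested together with 13679 genes in all, and *Kera* did not pass.

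MC3T3-E1 is a murine pre-osteoblastic line from calvarial bone, labelled wild type, and every library came from this line alone. Before the test, cells of every group went through osteogenic differentiation, for which ascorbic acid, dexamethasone and β-glycerophosphate (BGP) were added to the medium, so that the Control cells had also met BGP. The labels keep the osteogenic medium until the treatment, whereas the study's methods take BGP out of it earlier. Cells then received 4 mM BGP, an organic phosphate, 4 mM NaHPO4, a mixture of sodium phosphates serving as inorganic phosphate, or no added phosphate (Control) for 16 h, and RNA was harvested at day 28. By the study's methods, the medium itself held sodium phosphate in every group, Control included. The study also proposes, from alkaline phosphatase activity, that these cells convert BGP to inorganic phosphate. Each group had 3 libraries of stranded poly(A) RNA, with 21390839 to 28234404 counts per library. Nothing in the labels says that the 3 libraries came from separate cultures, so p-values measure the spread between these libraries, which may be technical. The question was whether the type of phosphate changes the expression of the SLRPs.

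SLRPs are secreted proteins built from repeated leucine-rich motifs that form a curved surface, which binds collagen fibrils and growth factors. In bone they lie in the osteoid and around the cells, where they are known for guiding fibril assembly, for holding growth factors of the TGF-β family and for roles in mineralization. *Dcn* (decorin), *Bgn* (biglycan) and *Aspn* (asporin) form class I, in which decorin and biglycan carry chondroitin or dermatan sulfate chains while asporin carries a stretch of aspartates that binds calcium. *Fmod* (fibromodulin), *Lum* (lumican), *Kera* (keratocan), *Prelp* and *Omd* (osteomodulin, also called osteoadherin) form class II, most of which can carry keratan sulfate. *Ogn* (osteoglycin, also called mimecan) belongs to class III and *Podn* (podocan) to a more distant class.

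In GRCm39, the build of the counts, 8 of the 10 genes lie in 3 groups of neighbours. *Aspn* (chr13:49697609-49721057), *Omd* (chr13:49735938-49746298) and *Ogn* (chr13:49761349-49780412) lie within 82.8 kb on the plus strand, beside the related *Ecm2* and inside the span of *Cenpp* on the opposite strand. *Dcn* (chr10:97315275-97358155), *Lum* (chr10:97400990-97408577) and *Kera* (chr10:97442728-97449554) lie within 134.3 kb on the plus strand. *Prelp* (chr1:133837335-133857971, minus strand) and *Fmod* (chr1:133964992-133976015, plus strand) lie within 138.7 kb. *Bgn* (chrX:72527208-72539541, plus strand) and *Podn* (chr4:107871988-107889534, minus strand) stand apart from the others. The annotation gives 3 exons to *Omd*, *Lum*, *Fmod*, *Prelp* and *Kera*, 7 to *Ogn*, 8 to *Aspn*, *Dcn* and *Bgn* and 13 to *Podn*. Sequence shared with other genes was scarce, at 3.43% of the 50-base windows of *Omd* transcripts and at most 1.08% for any other member.

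The windows of 250 bases before the start of the canonical transcript of *Aspn*, *Omd* and *Prelp*, the members with a changed level, are shown together with that of *Ogn*, the third gene of the chromosome 13 group. For *Aspn* and *Prelp* other annotated transcripts start further upstream, so that these windows lie inside the span of the gene, and which start the cells used was not tested. They are written 5′ to 3′ on the strand of the gene, with no annotated exon in the window, at chr13:49697669-49697918 on the plus strand for *Aspn*, chr13:49735688-49735937 on the plus strand for *Omd*, chr13:49761099-49761348 on the plus strand for *Ogn* and chr1:133849153-133849402 on the minus strand for *Prelp*. Capitals mark matches to TATAAA on either strand.
Aspn: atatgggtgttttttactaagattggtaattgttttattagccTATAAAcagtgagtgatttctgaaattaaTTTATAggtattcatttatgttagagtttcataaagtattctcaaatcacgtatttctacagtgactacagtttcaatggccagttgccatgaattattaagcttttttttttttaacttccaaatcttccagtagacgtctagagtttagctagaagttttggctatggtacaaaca
Omd: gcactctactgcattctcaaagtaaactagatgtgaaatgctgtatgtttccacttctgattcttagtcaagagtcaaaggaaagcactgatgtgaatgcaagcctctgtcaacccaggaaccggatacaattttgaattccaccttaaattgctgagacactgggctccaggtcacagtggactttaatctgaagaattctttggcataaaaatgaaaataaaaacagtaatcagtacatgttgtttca
Ogn: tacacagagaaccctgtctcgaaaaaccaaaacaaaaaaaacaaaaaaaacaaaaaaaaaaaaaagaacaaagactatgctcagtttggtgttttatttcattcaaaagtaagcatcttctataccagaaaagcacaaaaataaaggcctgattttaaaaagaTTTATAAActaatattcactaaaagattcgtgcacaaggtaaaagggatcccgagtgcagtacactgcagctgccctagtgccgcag
Prelp: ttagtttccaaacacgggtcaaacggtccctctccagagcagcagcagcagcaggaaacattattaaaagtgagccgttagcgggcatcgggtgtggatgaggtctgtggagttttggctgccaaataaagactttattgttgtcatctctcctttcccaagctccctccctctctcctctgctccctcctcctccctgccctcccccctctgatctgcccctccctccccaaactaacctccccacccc
The *Aspn* window held TATAAA on its own strand from 207 to 202 bases before the start and on the opposite strand from 178 to 173 bases before it. The *Ogn* window held it on the opposite strand from 87 to 82 bases before the start and on its own strand from 85 to 80, so that these matches overlap. The *Omd* and *Prelp* windows held none. TATAAA was found in 2 of the 10 members and in 11.9% of all 21757 such windows of protein-coding genes on the main chromosomes. TGTGGT, the core bound by RUNX factors, was found in 2 of 10 members (*Dcn* and *Lum*, on the opposite strand) and in 13.0% of all windows, and TGANTCA, the AP-1 motif, in 0 of 10 and in 6.18%. The 3 motifs do not overlap each other in these windows. The GC content was 30.0% for *Aspn*, 34.0% for *Ogn*, 38.4% for *Omd* and 55.2% for *Prelp*, beside a median of 53.2% over all windows.

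Of the 10 SLRPs, 8 were abundant in the differentiated cells, while *Podn* was rare and *Kera* was at the limit of detection. Together the 10 genes took 0.817% ± 0.00656 of the counts of a Control library, 0.798% ± 0.0252 with BGP and 0.788% ± 0.0103 with NaHPO4 (SD, n = 3 libraries each). *Bgn* and *Fmod* alone made up 57.8% to 61.2% of the SLRP counts in every library. The keratocan gene *Kera*, known from the cornea, had 0 counts in 8 libraries and 1 count in the second BGP library. A count of 0 allows up to 3 counts, or 0.106 to 0.14 CPM (counts scaled to a common library total) in these libraries, and this limit covers counting error only.

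Levels of different genes were compared per kilobase of the union of their exons, as TMM-normalized CPM per kb in the 3 Control libraries. *Fmod* was highest at 610 ± 17.1 CPM per kb and stood 25th among the tested genes with a length, followed by *Bgn* at 361 ± 12.8 CPM per kb, which stood 49th. *Omd* followed at 121 ± 4.12 CPM per kb, also without overlap with its neighbours. *Lum* (94.7 ± 3.07), *Dcn* (94.5 ± 3.08) and *Ogn* (87.8 ± 4.14) followed with overlapping ranges, and so did *Aspn* (75.5 ± 7.74) and *Prelp* (67.7 ± 2.16 CPM per kb). *Podn* was at 0.397 ± 0.0138 CPM per kb. The order at the top depended on the length used, since per kb of the longest transcript *Bgn* (813 CPM per kb) lay above *Fmod* (724), and per kb of the canonical transcript, a length added after the data were seen, *Bgn* (1010) again lay above *Fmod* (771). *Dcn* and *Lum* moved above *Omd* with both of these lengths.

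**Figure D1:**
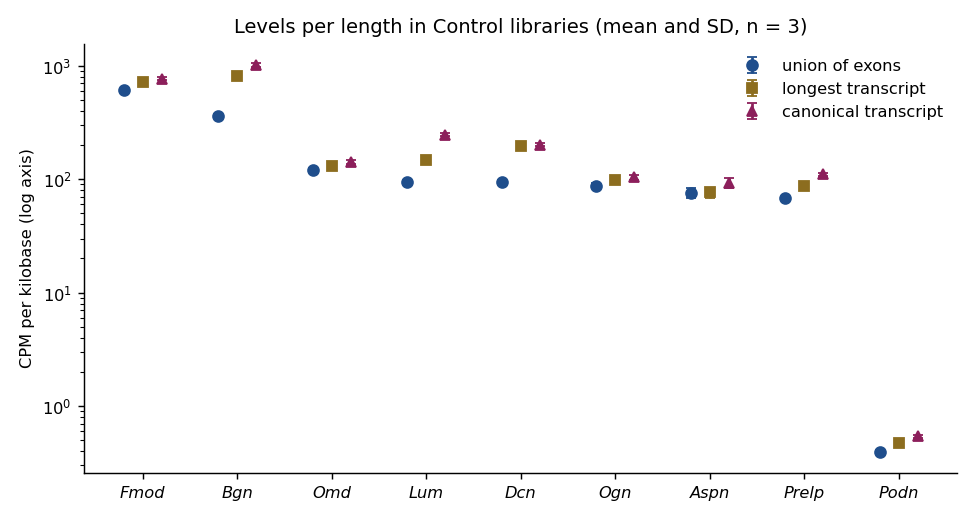
Mean level of each tested SLRP gene in the 3 Control libraries, in CPM per kilobase on a log axis with SD bars, for the length of the exon union (circles), the longest transcript (squares) and the canonical transcript (triangles). *Fmod* and *Bgn* lie highest and change places with the length used, and *Podn* lies far below the other 8 genes.

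NaHPO4 lowered 3 SLRP genes against Control. *Aspn* fell most, followed by *Omd* and *Prelp*, and no member rose. Of the 9 tested members, 3 passed a false discovery rate (FDR) of 0.05, all downward, beside 7.38% of all tested genes, 3.95% downward and 3.43% upward. At an unadjusted p under 0.05 there were 6 members, all lower, beside 19.9% of all genes. For 5 members every NaHPO4 library lay below every Control library, beside 11.6% of all genes with that pattern and 23.2% without overlap in either direction. With libraries scaled by total counts, 413 instead of 540 of all genes passed downward and 777 instead of 469 upward, while *Aspn*, *Omd* and *Prelp* passed under both scalings. In bulk RNA, fewer cells of a type and less RNA per cell cannot be told apart.

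Asporin binds calcium and collagen and can hold TGF-β and BMP-2 away from their receptors. *Aspn* was at 213, 247 and 203 CPM in the Control libraries, at 206, 223 and 237 CPM with BGP, and at 162, 176 and 177 CPM with NaHPO4. All NaHPO4 libraries lay below all Control and BGP libraries, while Control and BGP overlapped. Against Control, *Aspn* fell by 22.3% with NaHPO4 (95% interval −27.5 to −16.6%), a log2FC of −0.36 ± 0.0497 (SE, FDR = 2.13e-06, edgeR quasi-likelihood test with Benjamini-Hochberg adjustment).

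Osteomodulin is made by osteoblasts, binds hydroxyapatite and supports cell attachment. *Omd* was at 302, 283 and 298 CPM in Control, at 282, 276 and 273 CPM with BGP, and at 268, 261 and 244 CPM with NaHPO4. The 3 groups did not overlap, with Control highest and NaHPO4 lowest, although the lowest Control and the highest BGP library lay next to each other. *Omd* fell by 12.4% with NaHPO4 against Control (95% interval −16.7 to −7.83%), a log2FC of −0.19 ± 0.0359 (SE, FDR = 0.000368, edgeR).

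PRELP, named for its proline- and arginine-rich end, binds collagen and heparan sulfate. *Prelp* was at 479, 489.8 and 459.9 CPM in Control, at 441, 466 and 492 CPM with BGP, and at 426, 432 and 406 CPM with NaHPO4. The NaHPO4 libraries lay below those of both other groups, which overlapped each other. *Prelp* fell by 11.5% with NaHPO4 against Control (95% interval −15.9 to −6.90%), a log2FC of −0.18 ± 0.0363 (SE, FDR = 0.00107, edgeR).

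**Figure D2:**
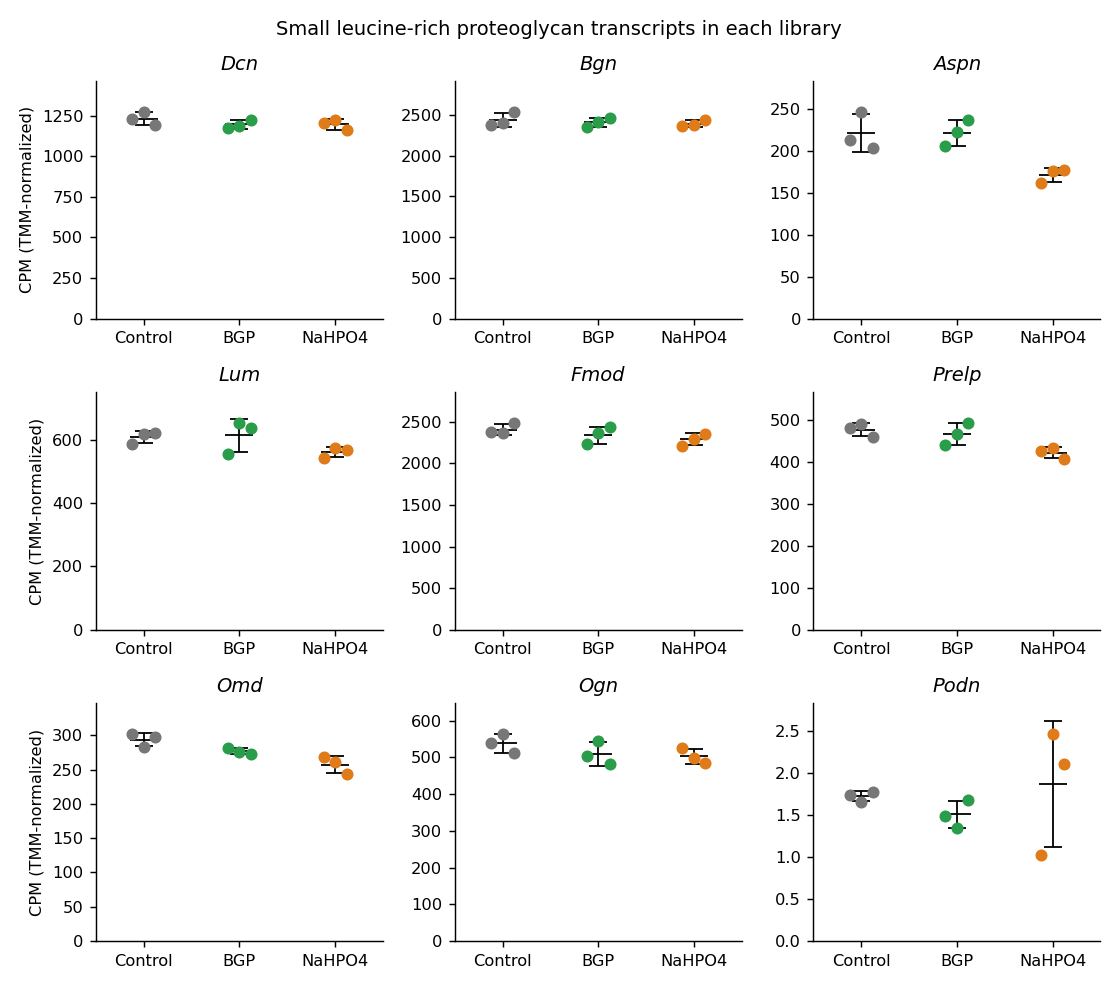
TMM-normalized CPM of each tested SLRP in every library, one panel per gene with its own axis, points for libraries, long lines for group means and bars for SD (n = 3). The NaHPO4 points of *Aspn*, *Omd* and *Prelp* lie below all Control points, and those of *Podn* spread widest.

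The other class II members gave smaller differences that did not pass. Lumican and fibromodulin both bind fibrillar collagen and limit fibril width. *Lum* was at 585, 617 and 621 CPM in Control, at 553, 652 and 635 CPM with BGP, and at 541, 573 and 568 CPM with NaHPO4. The NaHPO4 libraries lay below all Control libraries, and the BGP libraries spread over both ranges. Its log2FC for NaHPO4 against Control was −0.12 (95% interval −0.20 to −0.03, FDR = 0.0768, edgeR), and it passed with the fit of the 2 groups alone (FDR = 0.0314) and in 3 further of 18 alternatives. *Fmod* was at 2376, 2360.1 and 2484 CPM in Control, at 2229.7, 2362 and 2432 CPM with BGP, and at 2214, 2299 and 2359 CPM with NaHPO4. The NaHPO4 libraries lay just below the Control libraries, with a log2FC of −0.07 (95% interval −0.14 to −0.0043, FDR = 0.214).

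Decorin and biglycan, the class I members with glycosaminoglycan chains, bind TGF-β, and loss of biglycan is known to lower bone mass in mice. *Dcn* was at 1230.3, 1272 and 1192 CPM in Control, at 1176, 1184 and 1226 CPM with BGP, and at 1204, 1224 and 1159 CPM with NaHPO4. *Bgn* was at 2374, 2408 and 2537 CPM in Control, at 2352, 2418 and 2466 CPM with BGP, and at 2359.6, 2377 and 2440.2 CPM with NaHPO4. The groups overlapped for both genes, with log2FC for NaHPO4 against Control of −0.04 for *Dcn* (95% interval −0.11 to 0.02) and −0.03 for *Bgn* (95% interval −0.09 to 0.03).

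Osteoglycin, a small SLRP of bone and other connective tissue, stands beside *Omd* on the chromosome. *Ogn* was at 539.9, 563 and 512 CPM in Control, at 503, 545 and 482 CPM with BGP, and at 526, 499 and 485 CPM with NaHPO4. Its groups overlapped, and its log2FC for NaHPO4 against Control was −0.10 (95% interval −0.18 to −0.02, FDR = 0.138, edgeR). *Podn* had only 28 to 70 counts per library, and its log2FC of 0.12 (95% interval −0.42 to 0.65) covers changes in either direction, with NaHPO4 libraries of 1.02, 2.46 and 2.11 CPM spread on both sides of the Control libraries.

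No SLRP gene passed between BGP and Control. The 0 of 9 members stand beside 2.53% of all tested genes in this comparison, 1.86% upward and 0.665% downward. With DESeq2, edgeR's likelihood ratio test and limma on the TMM-scaled table, 0 members passed as well. At an unadjusted p under 0.05 there was 1 member, *Omd*, beside 13.4% of all genes, with a log2FC of −0.09 (95% interval −0.16 to −0.01, FDR = 0.264). *Omd* was also the 1 member whose BGP libraries all lay below the Control libraries, beside 8.79% of all genes with that pattern, 9.74% with the opposite one and 18.5% with either. The 95% intervals of the 8 abundant members lay within log2FC of −0.16 and 0.11 with BGP against Control, and that of *Podn* reached from −0.76 to 0.38. *Aspn*, which fell with NaHPO4, had a log2FC of 0.01 with BGP (95% interval −0.09 to 0.11).

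The direct comparison of both phosphates, given at the same dose and time, tested the difference between them. *Aspn* was higher with BGP than with NaHPO4 by 29.1% (95% interval 20.4 to 38.5%), a log2FC of 0.37 ± 0.0497 (SE, FDR = 2.66e-06, edgeR). *Prelp* was higher by 10.6% (95% interval 5.13 to 16.4%), a log2FC of 0.15 ± 0.0363 (SE, FDR = 0.00998, edgeR). These 2 of 9 members stand beside 5.38% of all tested genes, 3.33% upward and 2.05% downward. At an unadjusted p under 0.05 there were 4 members, all higher with BGP, beside 16.9% of all genes. For 3 members, *Aspn*, *Prelp* and *Omd*, every BGP library lay above every NaHPO4 library, beside 10.8% of all genes with that pattern, 10.4% with the opposite one and 21.2% with either. *Prelp* did not pass without the third BGP library (FDR = 0.139) or without the third NaHPO4 library (FDR = 0.082).

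Between BGP and NaHPO4 the remaining members did not pass. *Lum* had a log2FC of 0.13 (95% interval 0.05 to 0.21, FDR = 0.0549) and *Omd* of 0.10 (95% interval 0.03 to 0.18, FDR = 0.0854). *Omd* thus passed for NaHPO4 against Control and not between the phosphates. For *Fmod*, *Ogn*, *Bgn* and *Dcn* the log2FC were 0.03 (−0.04 to 0.10), 0.02 (−0.06 to 0.10), 0.01 (−0.05 to 0.07) and −0.0006 (−0.07 to 0.06), with 95% intervals. *Podn* had a log2FC of −0.31 (95% interval −0.86 to 0.25).

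**Figure D3:**
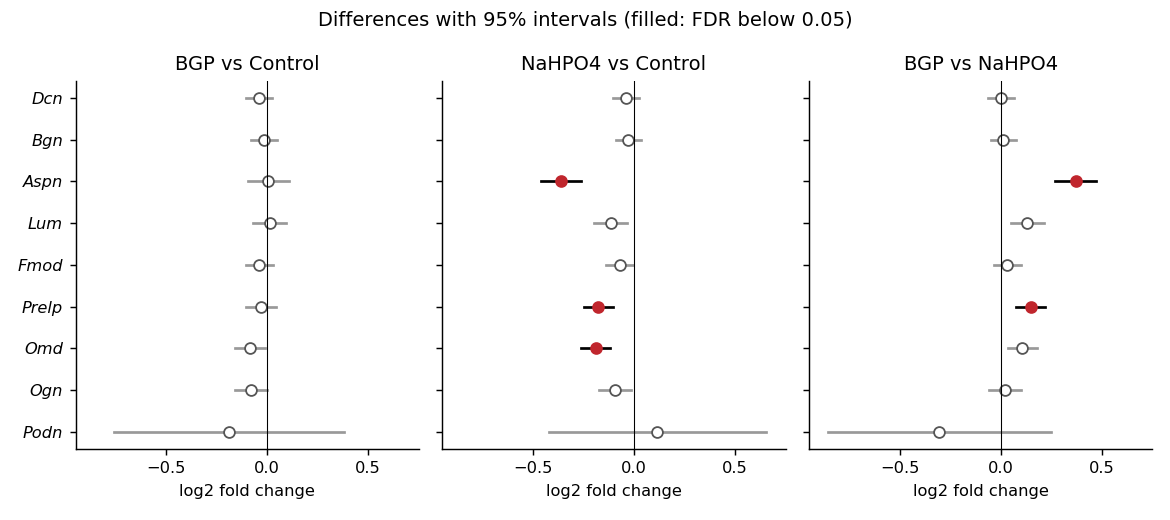
Log2FC of each tested SLRP in the 3 comparisons, as points with 95% intervals and a line at 0, filled where the FDR was below 0.05. With NaHPO4 against Control *Aspn*, *Omd* and *Prelp* passed, with BGP against NaHPO4 *Aspn* and *Prelp* passed, and with BGP against Control none passed.

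No SLRP reached the study's threshold for a differentially expressed gene, an FDR below 0.05 with an absolute log2FC above 0.5, in any of the 3 comparisons. At that threshold 0.556% of all tested genes were called for BGP against Control, 0.716% for NaHPO4 against Control and 0.585% for BGP against NaHPO4. The 95% intervals of the 8 abundant members ended at −0.46 for NaHPO4 against Control and at 0.47 for BGP against NaHPO4, in both cases for *Aspn*. The median log2FC of the 9 tested members was −0.04 for BGP against Control, beside −0.0043 over all genes. It was −0.10 for NaHPO4 against Control, beside 0.0001, and 0.03 for BGP against NaHPO4, beside −0.0018. The 3 comparisons share libraries, so their values are not independent of each other.

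Neighbouring members did not always pass the test together. In the chromosome 13 group *Aspn* and *Omd* fell with NaHPO4 while *Ogn* did not pass, and in the chromosome 1 group *Prelp* fell while *Fmod* did not pass. The log2FC of *Ogn* (−0.10) and *Fmod* (−0.07) had the same sign as those of their neighbours, and differences between neighbours were not tested. *Ecm2*, a related gene beside *Aspn*, was at 14.6 CPM in Control and 13.9 CPM with NaHPO4, with a log2FC of −0.07 (FDR = 0.722). *Cenpp*, which shares 1155 exon bases with *Ogn*, 267 with *Aspn* and 0 with *Omd* on the opposite strand, was at 3.51 CPM in Control and 2.93 CPM with NaHPO4 (log2FC = −0.26, FDR = 0.482). Whether strand was used in counting is not given in the sources used here, so reads of *Cenpp* and of these genes may be mixed, and the same holds for *Prelp* and the long non-coding gene *Gm15851*, which share 350 exon bases.

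Among the genes around the SLRPs, 3 sulfotransferases that modify chondroitin and dermatan sulfate chains rose with BGP. Of 23 tested chain enzymes, 3 rose with BGP against Control and none fell (median log2FC 0.0064), 2 fell and none rose with NaHPO4 against Control (median −0.0285), and 4 were higher and none lower with BGP than with NaHPO4. These counts, and those of the lists that follow, stand beside the 2.53%, 7.38% and 5.38% of all tested genes that passed in the same 3 comparisons, and were not tested against them. The 2 of 23 chain enzymes that passed with NaHPO4 are close to that share. The sulfotransferase genes *Chst11* (log2FC = 0.36, FDR = 1.32e-05), *Chst15* (0.24, FDR = 0.000334) and *Chst3* (0.28, FDR = 0.000917) were the 3 that rose. *Chst3* and *Chpf*, a chain polymerizing factor, fell with NaHPO4 by 0.27 and by 0.14 on the log2 scale. *Chst3* was at 41.2, 40.7 and 39.1 CPM in Control, at 45.8, 51.4 and 49.5 CPM with BGP and at 33.3, 33.5 and 33.2 CPM with NaHPO4, so that the 3 groups did not overlap. Its log2FC between BGP and NaHPO4 was 0.55 (FDR = 2.33e-09). None of 4 tested keratan sulfate enzymes passed in any comparison.

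Of 12 tested enzymes that process or cleave SLRPs, 3 fell with NaHPO4 against Control and none passed with BGP (median log2FC −0.0461 and 0.0043). They were *Mmp14*, a membrane-bound metalloproteinase (log2FC = −0.26, FDR = 3.95e-07), *Bmp1*, which removes the propeptides of biglycan and of procollagen (−0.21, FDR = 2.11e-05), and *Mmp2* (−0.14, FDR = 0.0062). *Bmp1* was at 298, 291 and 297 CPM in Control and at 258, 248 and 258 CPM with NaHPO4, without overlap. Of 5 tested further genes of the SLRP family, 1 fell with NaHPO4, the tsukushi gene *Tsku* (−0.26, FDR = 0.0164).

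Of 19 tested receptors and ligands, 2 rose with BGP against Control, and with NaHPO4 against Control 1 rose and 3 fell (median log2FC 0.0548 and −0.0422). Between the phosphates 7 were higher with BGP and none lower. *Ccn2*, a matricellular ligand, rose with both phosphates, by a log2FC of 0.96 with BGP (FDR = 8.03e-16) and 0.64 with NaHPO4 (FDR = 7.4e-11). *Tgfb3* rose with BGP (0.18, FDR = 0.0481), and *Tgfb1* (−0.16, FDR = 0.00611) and *P2rx4*, an ATP-gated channel that biglycan can engage (−0.18, FDR = 0.00517), fell with NaHPO4.

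Among 12 tested collagens that SLRPs bind, 1 rose with BGP against Control, the cartilage collagen *Col2a1* (0.50, FDR = 0.000754). With NaHPO4 against Control 5 collagens fell and 2 rose, among them *Col1a1* (−0.22, FDR = 2.47e-05) and *Col1a2* (−0.17, FDR = 0.00018), the chains of the main bone collagen, which fell, and *Col6a2* (0.22, FDR = 3.15e-05), which rose. *Col2a1*, higher with BGP, was among those that fell with NaHPO4 (−0.45, FDR = 0.00141), although its Control and NaHPO4 libraries overlapped. The median log2FC of the collagens was −0.10 with NaHPO4. Of 18 tested other proteoglycans, 5 rose with BGP, and 2 rose and 8 fell with NaHPO4 (median log2FC 0.0231 and −0.0618). Versican (*Vcan*) rose with both phosphates (0.47, FDR = 7.88e-07 with BGP and 0.76, FDR = 2.26e-12 with NaHPO4), while glypican 1 (*Gpc1*) fell with NaHPO4 (−0.30, FDR = 3.23e-09). All of these p-values came from the edgeR fit over all genes.

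**Figure D4:**
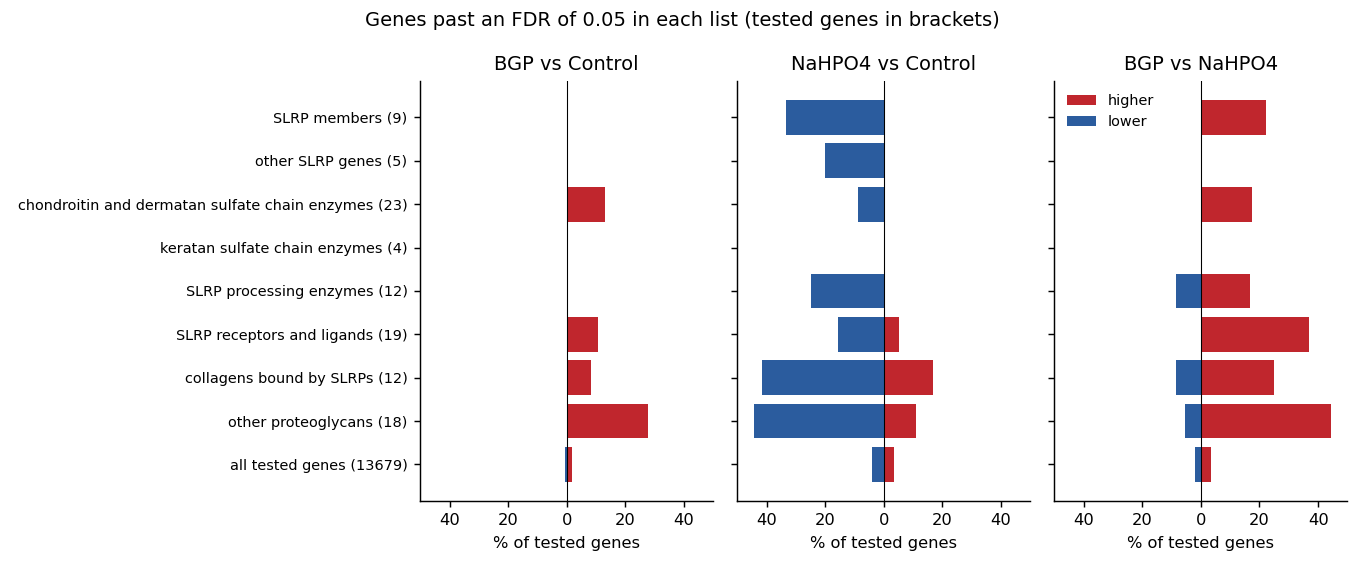
Percentage of the tested genes of each list that passed an FDR of 0.05, with lower genes to the left of 0 and higher genes to the right, in each of the 3 comparisons. The number tested stands in brackets, and the lowest row holds all 13679 tested genes. SLRPs passed downward with NaHPO4 against Control (3 of 9) and upward with BGP against NaHPO4 (2 of 9).

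Of the marker genes for the labelled osteoblast lineage, 12 of 12 passed the filter. With NaHPO4 against Control 4 of them fell and 2 rose, and with BGP against Control 3 rose and 0 fell. *Dmp1*, a mineralization protein of osteocytes, rose with both phosphates (log2FC of 2.86 with BGP and 2.19 with NaHPO4). So did *Spp1* (1.48, FDR = 3.42e-23 with BGP and 1.97, FDR = 6.76e-27 with NaHPO4, edgeR). *Phex* rose with BGP (0.26, FDR = 0.0333, edgeR). The 4 that fell with NaHPO4 were *Sost* (−1.685, FDR = 0.00272), *Alpl* (−0.21, FDR = 0.00128), *Col1a1* (−0.22, FDR = 2.47e-05) and *Bglap* (−0.15, FDR = 0.0146, edgeR). *Sost* was rare, with means of 1.39 CPM in Control and 0.427 CPM with NaHPO4. The summed level of 8 chondrocyte markers was 263 to 327 CPM in Control, 353 to 459 CPM with BGP and 198 to 279.5 CPM with NaHPO4, with *Matn1* at 0. *Col2a1* made up most of that sum, with means of 242 CPM for Control libraries, 342 CPM for BGP libraries and 177 CPM for NaHPO4 libraries. Of the 5 tested chondrocyte markers 1 rose and 1 fell with BGP against Control, the latter being the cartilage matrix gene *Comp* (log2FC = −0.44, FDR = 0.0128). *Sox9*, the chondrocyte transcription factor, did not pass with BGP (0.03, FDR = 0.908). With NaHPO4 against Control 2 of the 5 fell and 0 rose, *Comp* (−0.49, FDR = 0.00141) and *Col2a1* (−0.45, FDR = 0.00141, edgeR). The summed level of 5 tendon cell markers was 131 to 139 CPM in Control, 209.5 to 234 CPM with BGP and 114 to 119 CPM with NaHPO4, with *Tnmd* at 0. *Egr1*, an immediate early gene used here as a tendon marker, made up most of that sum and had a log2FC of 0.89 with BGP and −0.28 with NaHPO4. *Scx*, the tendon transcription factor, fell with BGP (−0.38, FDR = 0.00328) and with NaHPO4 (−0.29, FDR = 0.0128). The sum of 8 macrophage and osteoclast markers, mostly *Ctsk*, was 312 to 320.1 CPM in Control, 297 to 311 CPM with BGP and 267 to 287 CPM with NaHPO4, with *Tyrobp* at 0, *Csf1r* at most at 1.26 CPM and *Cd68* at most at 1.35 CPM. The part of the chondrocyte, tendon and macrophage markers in the lower levels of *Aspn*, *Omd* and *Prelp* was not tested. Adipocyte markers summed to at most 16.2 CPM in any library, mostly *Fabp4*, muscle markers to at most 10.24 CPM and endothelial markers to at most 2.56 CPM.

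The genes whose level over the 9 libraries was most like that of *Aspn* were *F7* (Pearson correlation 0.978), *Agt* (0.973) and *Ehd3* (0.963), out of 13678 genes compared. *Agt*, the angiotensinogen gene, had a log2FC of −0.33 with NaHPO4 against Control (FDR = 3.02e-07). The genes most like *Omd* were *Lrp4* (0.979), *Ccdc74a* (0.974) and *Ptk7* (0.973), and those most like *Prelp* were *Slc37a3* (0.965), *Smpdl3a* (0.956) and *Ctnnb1* (0.953). *Ccdc74a*, at 5.90 to 9.63 CPM, and *Smpdl3a*, at 2.23 to 4.56 CPM, were rare, and *Smpdl3a* passed in no comparison. These correlations describe 9 libraries that share their groups and their scaling.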

How the data were processed

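RNA sequencing of 9 MC3T3-E1 libraries, 3 per group, was used, with groups and replicate numbers from the sample labels. The authors deposited whole-number read counts per Ensembl gene, mapped to GRCm39 in the AIR software, and a TMM-scaled signal that multiplies each library's counts by a single factor. FastQC and edgeR are named in the submitters' processing notes. The aligner and counting program are not given in the sources used here. Total counts were 21390839 to 28234404 per library. Precision is lowest for rare genes such as *Podn*.

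Genes were filtered with filterByExpr (count minimum 10), leaving 13679, scaled by TMM and fitted over all 9 libraries with the quasi-likelihood test of edgeR 4.0.16, with Benjamini-Hochberg adjustment over all tested genes. Passing means an FDR below 0.05. SE came from the F statistic, intervals cover 95%, and SDs are over 3 libraries. Lengths, positions and promoter windows came from a GENCODE annotation of GRCm39, with a length for 13631 of the 13679 tested genes. RefSeq promoter windows on another mouse build and amino acid sequences were not used here.

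The members, lists and motifs were chosen with earlier results of these data known. Named were all 10 members, of each list at most the 3 genes with the smallest FDR in a comparison, and the 3 genes most like each member that passed. Neighbouring and overlapping genes were named for their position. Some further markers and list genes were named to show members of a list that differed from the others. Alternatives were other scalings (DESeq2 size factors, total counts), no or a stricter filter, DESeq2 1.42.0, edgeR's likelihood ratio test, limma 3.58.1 on log2(value + 1) of the TMM-scaled signal, the 2 groups alone, a replicate block, and each library left out. The procedure was tested on simulated data. R 4.3.3, Python 3.11.15, pandas 2.3.3 and matplotlib 3.10.9 were used.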

Additional observations from a re-analysis of the deposited data

How the results depend on the processing

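*Aspn*, *Omd* and *Prelp* fell with NaHPO4 against Control in 18 of 18 alternatives, with FDR of at most 0.00141, 0.00808 and 0.0143, and *Aspn* was higher with BGP than with NaHPO4 in 18 of 18 (FDR of at most 0.00145). Leaving out 1 library gave 1 to 3 members past the FDR between BGP and NaHPO4, beside 2 with all libraries, and *Prelp* passed there in 16 of 18 alternatives. *Lum* passed in 4 of 18 for NaHPO4 against Control (FDR 0.00744 to 0.354) and in 4 of 18 between BGP and NaHPO4 (0.000803 to 0.363), and *Omd* passed between BGP and NaHPO4 in 1 of 18. No member passed for BGP against Control under any of the 18.

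In the lists of genes around the SLRPs, 11 genes passed for BGP against Control, 27 for NaHPO4 against Control and 27 for BGP against NaHPO4, and with an absolute log2FC above 0.5 there were 2, 3 and 3. Some differences that passed nowhere changed sign. With total counts, BGP against NaHPO4 gave −0.0157 for *Bgn* and −0.0086 for *Ogn*, and limma on the TMM-scaled signal gave −0.0042 for *Bgn*. With 1 library left out, some ranges of log2FC crossed 0. For BGP against NaHPO4 they were −0.0226 to 0.0167 for *Dcn*, −0.0046 to 0.0295 for *Bgn*, −0.0292 to 0.0578 for *Ogn*. For BGP against Control they were −0.0359 to 0.0126 for *Bgn*, −0.0312 to 0.0818 for *Lum*, −0.0518 to 0.0919 for *Aspn*, −0.0711 to 0.0078 for *Prelp*. For NaHPO4 against Control they were −0.0476 to 0.0011 for *Bgn*, −0.1459 to 0.4115 for *Podn*.
The libraries share replicate numbers 1 to 3, but libraries with the same number did not deviate together (mean correlation 0.0127), so the number was not taken as a pairing. With the replicate block, 4 members passed for NaHPO4 against Control and 3 for BGP against NaHPO4, *Lum* being added, and 0 for BGP against Control. *Podn* had 28 to 70 counts per library and the widest intervals of the members.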
